A study of Xenopus tropicalis with 12 samples.

Results

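Binding of thyroid hormone receptor (TR) was examined at the genes that encode other nuclear receptors in the intestine of Xenopus tropicalis tadpoles. The genes were taken by name from the gene annotation that accompanies the 12 peak lists. Every symbol built on the nuclear receptor nomenclature (nr followed by its subfamily digit, group letter and gene number) was taken. To these were added 17 traditional symbols, such as those of the retinoid, vitamin D and steroid receptors. The TRβ gene thrb and the genes of the estrogen-related and HNF4 receptors are outside this rule and are given separately below. Of 19768 genes named in the lists, 32 met this rule. They comprise 31 receptor genes and nr2c2ap, whose product associates with the receptor encoded by nr2c2 and is not itself a receptor. The genes rara, rxra, ppara, pparg and rorc are not named in the lists used here and were not analysed. A gene is named in these lists when it is annotated beside a peak, so the 19768 genes are not all genes of the frog.

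Intestines of wild-type (WT) and TRα-/- tadpoles born to the same parents were collected at around stage 54, before metamorphosis, from animals kept without T3 (control) or in 10 nM T3, the active thyroid hormone, for 18 h. The TRα-/- animals lack TRα, the main TR of the premetamorphic tadpole, and still carry TRβ. ChIP was carried out with an antibody that recognizes both TRα and TRβ, so a peak does not say which TR was present. Intestines of several tadpoles were merged into 1 ChIP DNA sample per condition, and each sample was sequenced as 3 technical replicates, giving 12 libraries in 4 conditions (WT control, WT T3, TRα-/- control and TRα-/- T3). The spread between replicates is therefore technical, and p-values measure only that spread. The whole intestine holds epithelium, connective tissue and muscle, and ChIP peaks carry no markers against which the tissue label could be checked.

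Nuclear receptors are transcription factors that bind DNA through a pair of zinc fingers and, in most cases, respond to a small lipophilic ligand such as a steroid, a retinoid, a bile acid or thyroid hormone. TR binds its response elements mostly as a heterodimer with a retinoid X receptor (RXR), the partner it shares with the retinoic acid receptors (RAR), the vitamin D receptor, the PPARs and the oxysterol and bile acid receptors. The steroid receptors bind DNA as homodimers and do not need RXR. In tadpoles, T3 acts together with corticosteroids, which speed metamorphosis, so receptor genes are of interest as points where hormone signals could meet.

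The lists of the 12 libraries held 17414 to 63333 peaks, each called with a q-value under 0.05 and without a control library. The TRα-/- T3 lists were the shortest, with 17414, 26018 and 30916 peaks. A listed peak can rest on few fragments, as the lowest pileup, in fragments at the summit, was 2 to 4 by library. A background level per library, recovered from pileup and fold enrichment as fragments per base, ran from 0.0898 in WT control replicate 1 to 0.664 in WT T3 replicate 3. A gene was called bound in a condition when a region with a peak in all 3 libraries lay within the gene or 5 kb on either side. Read totals are not in the lists, so the sequencing depth is unknown, and a gene that was not called bound may hold binding that these libraries did not detect.

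Of the 32 nuclear receptor genes, 6 were bound in any condition and none in all 4. The 6 were ar (androgen receptor), pgr (progesterone receptor), nr3c1 (glucocorticoid receptor), nr3c2 (mineralocorticoid receptor), nr1h4 (the bile acid receptor FXR) and nr5a2 (LRH-1, a receptor that controls intestinal and hepatic lipid genes). In WT control, 3 were bound, where 16.0% of all genes were. In WT T3, 5 were bound, against 21.2% of all genes. In TRα-/- control 1 was bound, against 13.5% of all genes, and in TRα-/- T3 1 was bound, against 11.5%. The share bound in any condition was 18.8% of the receptor genes, where 24.2% of all genes were called, and 8.52% of all genes were bound in all 4 conditions. Taking the conditions of a genotype together, 6 receptor genes were bound in WT with or without T3 (23.1% of all genes) and 1 in TRα-/- with or without T3 (15.6% of all genes). By this rule the receptor genes' share was below the background in each condition, a description for which no test was made and which turned with other rules. With the gene extent alone, without the 5 kb on either side, the share was above the background in WT T3 (5 of 32, 15.6%, against 2573 of 19768) and in any condition (18.8% against 14.8%). With a peak required in 2 of 3 libraries it was above in WT control (37.5% against 29.9%) and in any condition (46.9% against 40.5%).

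**Figure D1:**
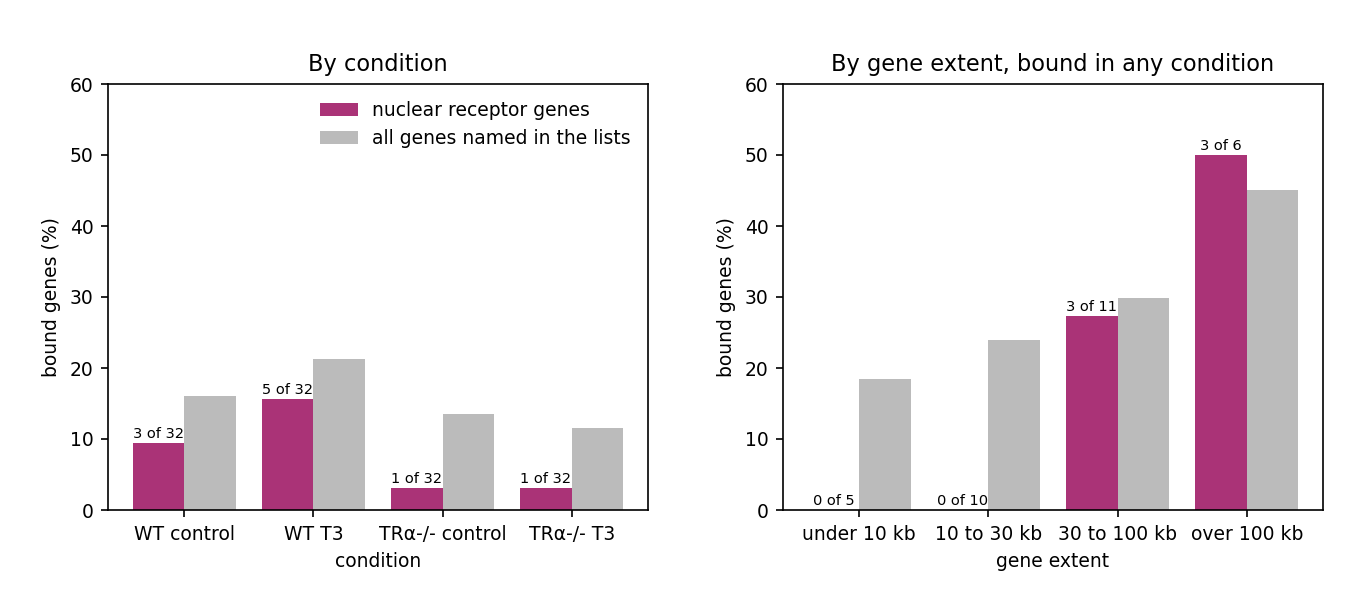
Percentage of genes bound by TR in each condition (left) and by gene extent for any condition (right), for the 32 nuclear receptor genes (purple, with counts) and all 19768 genes named in the lists (grey). The purple bar was below the grey one in all 4 conditions, an order that turned in WT T3 with the gene extent alone and in WT control with 2 of 3 libraries, and no receptor gene under 30 kb was bound.

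The bound receptor genes were long ones. The 32 genes spanned 3787 to 196516 bp in the listed annotation with a median of 31010 bp, against a median of 12703.5 bp over all genes. None of the 15 receptor genes shorter than 30 kb was bound, while 20.7% of all genes of that length were. Among these, nr2c1, nr2c2, nr2f1 and nr2f2 have no complete gene feature listed, so their extents may be too short. Of the 17 receptor genes of 30 kb or more, 6 were bound, beside 33.5% of all such genes. Above 100 kb, 3 of 6 receptor genes were bound (ar, nr3c1 and nr3c2), beside 45.1% of all genes in that class. The unbound long ones were rorb, rarg and rarb, and the short unbound ones included both orphan receptors of the NR0 subfamily, nr0b1 (DAX1) and nr0b2 (SHP), which lack the usual DNA-binding domain.

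By subfamily, the bound genes among the 32 lay mostly in NR3, the steroid receptors. Of the 6 NR3 genes in the set, 4 were bound and the estrogen receptor genes esr1 and esr2 were not. The median extent of the 6 was 107401 bp. In NR1, which holds the RAR, PPAR, ROR, REV-ERB, vitamin D, oxysterol and bile acid receptors, 1 of 10 was bound with a median extent of 52364.5 bp. Of the 9 NR2 genes in the set (RXR, COUP-TF and testicular receptors among them), none was bound, with a median extent of 15546 bp. In NR4, the immediate-early orphan receptors, none of 3 was bound, and nr5a2 was the only member of NR5. Over all genes, 24.2% were bound in any condition, and 45.1% of those over 100 kb. These counts leave out receptor genes of the same subfamilies that fall outside the rule. Of those, thrb (NR1), hnf4a and hnf4g (NR2) and esrrg (NR3) were bound, and hnf4b (NR2), esrra and esrrb (NR3) were not. This grouping was made after the calls were seen, and the subfamilies differ in gene length as well.

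The bound genes among the 32 carried 8 sites in all, that is, places where a region of at least 1 condition lay. Coordinates are those of Xenbase assembly v9.1. Of the 8, 6 lay in the gene body outside the listed exons and 2 downstream of the gene, beside 62.9% and 16.4% of all pairs of a gene and a site. None lay within 1 kb of the gene start, where 11.8% of all pairs did. None was within 5 kb of another gene, so each site is assigned to its receptor gene alone. The sites were 298 to 2221 bp wide with a median of 862 bp, against 825 bp over all 15152 sites. None of these 8 sites had a peak in all 12 libraries, whereas 26.0% of all sites did, and 25.5% of the 8196 sites within 5 kb of any gene.

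The androgen receptor gene ar, on the minus strand of chromosome 8, had the most widely detected site of the set. At chr8:20273387-20275607, 121065 bp into the gene and outside its listed exons, 11 of 12 libraries had a peak. Peaks are ranked here within each library by -log10 p, with rank 1 the strongest. The ranks were 7735 and 9107 in WT control replicates 2 and 3, and 4680, 10264 and 6433 in the WT T3 replicates. They were 4937, 10325 and 2931 in TRα-/- control and 16547, 7768 and 20174 in TRα-/- T3. The ranks of the TRα-/- T3 libraries overlapped those of the others only through replicate 2. Their lists are shorter, and as a percent of the list these peaks stood at 95.0%, 29.9% and 65.3%. The peaks of the other libraries stood at 6.9% to 26.5% of their lists, without overlap. The TRα-/- T3 peaks had pileups of 3, 6 and 5 fragments, and 3 was the lowest pileup in the list of replicate 1. The only library without a peak was WT control replicate 1, which alone kept ar from being bound in all 4 conditions.

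A further ar site, at chr8:20235581-20236335, began 90 bp beyond the 3′ end of the gene and had a peak in 9 libraries. It was found in 2 WT control, 3 WT T3, 3 TRα-/- control and 1 TRα-/- T3 library. The best rank was 2289, in TRα-/- control replicate 1, where the authors' fold enrichment over local background was 7.27, and the highest fold enrichment was 8.87, in WT T3 replicate 3. In the gene body, another place at 96674 bp from the start had peaks in 2 WT control and 2 WT T3 libraries and in no TRα-/- library, with a fold enrichment of up to 11.8, and was not called in any condition.

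The mineralocorticoid receptor gene nr3c2 carried the strongest peak by rank at the 8 sites of the 32 genes. Aldosterone and corticosterone act through this receptor, which controls sodium uptake in epithelia. At chr1:47871111-47871408, 62868 bp into the gene on the plus strand, all 3 WT T3 libraries had a peak, at ranks 967, 2618 and 4121 with fold enrichments of 16.0, 13.01 and 10.6. In WT control, replicates 1 and 3 had a peak at ranks 3126 and 7554, with fold enrichments of 6.19 and 7.57, and replicate 2 had none. No TRα-/- control library had a peak there, and 1 TRα-/- T3 library did, at rank 6339 with a fold enrichment of 5.48. Fold enrichment in the 3 WT T3 libraries thus lay above that of all 3 other libraries with a peak. However, fold enrichment also moves with depth, which is unknown. The site was also called in WT T3 alone, which needs a peak in all 3 of its libraries, so the comparison is tilted towards WT T3. By rank the conditions overlapped, as WT control replicate 1 (3126) lay between WT T3 replicates 2 (2618) and 3 (4121).

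The other nr3c2 site, at chr1:48007537-48008424, lay 2630 bp downstream of the gene and was shared more evenly. It had a peak in 3 WT control, 3 WT T3, 2 TRα-/- control and 2 TRα-/- T3 libraries. Ranks were 12487, 14682 and 11859 in WT control and 25716, 9898 and 9664 in WT T3. In the TRα-/- libraries with a peak they were 6284 and 37548 without T3 and 14341 and 10468 with T3. The ranks of the 4 conditions overlapped.

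The glucocorticoid receptor gene nr3c1, on the minus strand of chromosome 3, was bound in WT T3 alone. Its product transmits the corticosteroid signal that acts with T3 at metamorphosis. The site at chr3:29118350-29119185 lies 49657 bp into the gene. The 3 WT T3 libraries had peaks at ranks 10124, 3605 and 5068. In WT control, replicates 1 and 3 had peaks at ranks 9938 and 4417, and in TRα-/- control, replicates 2 and 3 had peaks at ranks 2705 and 7035. In TRα-/- T3, replicates 1 and 3 had peaks at ranks 3109 and 3363. Each of the other conditions thus missed the call by 1 library, and the ranks of all 4 conditions overlapped.

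The progesterone receptor gene pgr was bound in WT control alone, at chr2:159396168-159396499, 2042 bp from the gene start on the plus strand. Among the 8 sites, this was the nearest to a gene start. WT control ranks were 7971, 8021 and 46208. In the other 3 conditions 2 of 3 libraries had a peak, at ranks 4567 and 8016 in WT T3, 14787 and 2979 in TRα-/- control, and 4953 and 17729 in TRα-/- T3. The missing library was replicate 2 in WT T3 and in TRα-/- control and replicate 3 in TRα-/- T3, so the call in WT control alone again turned on 1 library per condition.

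The FXR gene nr1h4 was bound in WT T3 alone, at chr3:38988231-38989451, 33944 bp into the gene on the plus strand. FXR senses bile acids in the ileum and liver of mammals. WT T3 ranks were 10056, 15003 and 9421. The peaks in WT control replicates 2 and 3 were at ranks 20061 and 9420, and replicate 1 had none. TRα-/- control had 1 peak, at rank 25564, and TRα-/- T3 had 2, at ranks 17540 and 22704. The 3 ranks in TRα-/- libraries were weaker than those of all 3 WT T3 libraries and 1 of the 2 WT control libraries with a peak. As a percent of the list, the TRα-/- peaks stood at 60.2% to 73.4% and the WT peaks at 14.9% to 44.9%. The site was taken because it was called in WT T3, so both comparisons are tilted towards WT T3.

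The LRH-1 gene nr5a2 was called in both WT conditions and in neither TRα-/- condition. In mammals LRH-1 is expressed in intestinal crypts and takes part in epithelial renewal. At the joined site chr4:101658025-101659611, 14478 bp into the gene on the plus strand, all 6 WT libraries had a peak and 1 of 6 TRα-/- libraries did. A call needs a peak in all 3 libraries, so the 6 WT peaks follow from the WT calls. They are no separate support for a difference between genotypes. The WT T3 peaks did not all overlap each other. Without replicate 2, those of replicates 1 and 3 were not joined, and nr5a2 was not called in WT T3. That call was also lost with an overlap of 50% of both peaks and with the 17414 strongest peaks of each library. The WT control call held in each of these alternatives. WT control ranks were 2103, 9741 and 11223, and WT T3 ranks were 32146, 13977 and 12036, so every WT T3 peak ranked below every WT control peak. Fold enrichments of the same peaks overlapped, at 7.61, 5.79 and 6.31 in WT control and 3.02, 5.69 and 6.27 in WT T3. The single TRα-/- peak, in control replicate 1, was the strongest of all at rank 1738, with a fold enrichment of 8.08. The other TRα-/- control replicates, made from the same ChIP DNA, had no peak there. A peak in 1 library is not counted as binding here, and whether it marks the same binding as in WT was not tested.

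**Figure D2:**
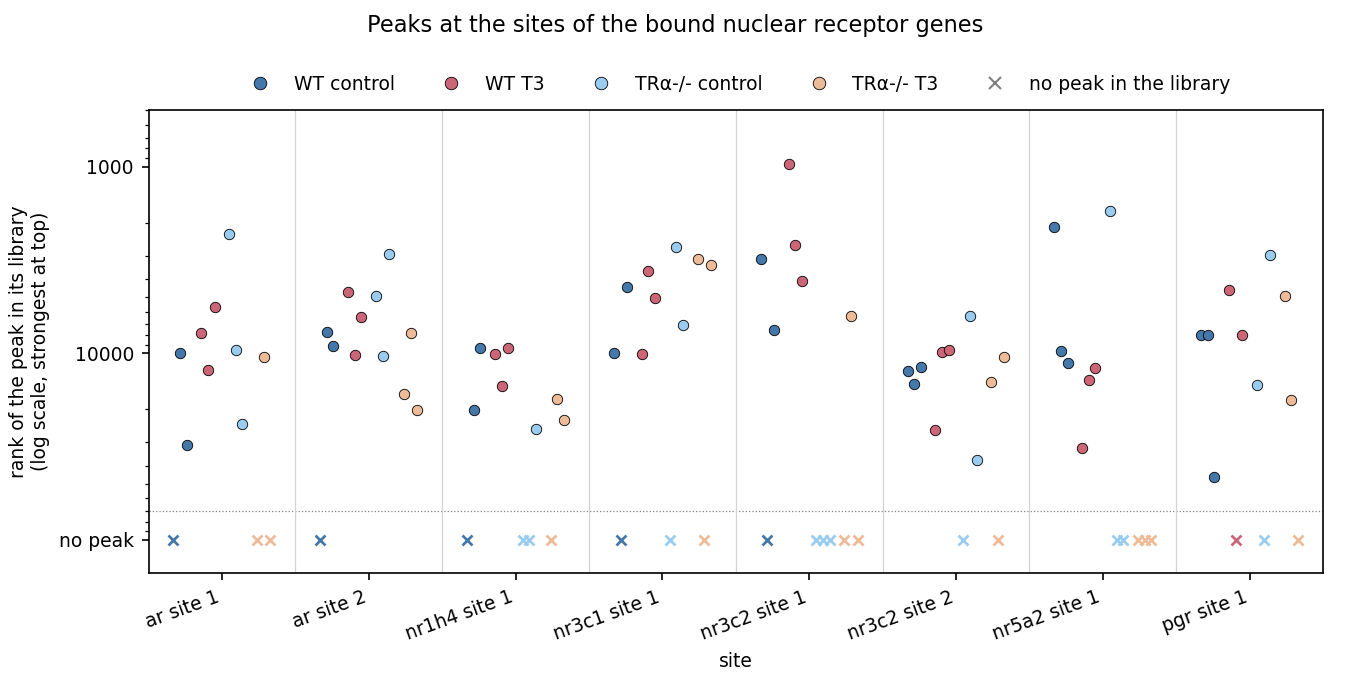
Rank of the peak at each of the 8 sites in each of the 12 libraries (log scale, strongest peaks at the top, 1 point per library, replicates 1 to 3 from left to right within a condition). Crosses mark libraries without a peak. At the joined nr5a2 site, where the WT T3 peaks did not all overlap, 6 of 6 WT and 1 of 6 TRα-/- libraries had a peak. The 6 WT peaks follow from the calls in both WT conditions. At nr3c2 site 1, which was called in WT T3 alone, the 3 WT T3 libraries included the strongest rank of all, 967.

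By genotype, 5 of the 32 receptor genes (15.6%) were bound in WT alone, where 8.56% of all genes were, and none in TRα-/- alone, where 1.06% of all genes were. Of the genes bound in any condition, these were 5 of 6 receptor genes and 35.4% of all genes. Only ar was bound in both. Of the 5, nr3c1, nr3c2 and pgr still had a peak at a site in 2 of 3 libraries of each TRα-/- condition. Requiring a peak in 2 of 3 libraries, ar, nr3c1, nr3c2 and pgr were bound in all 4 conditions, nr1h4 in 3, and nr5a2 in the WT conditions alone. That rule also called further receptor genes, and 7 of the 32 (21.9%) were bound in WT alone, against 13.4% of all genes. The TRα-/- T3 lists were shorter than all WT lists. With each list reduced to its 17414 strongest peaks, nr1h4, nr3c1, nr3c2 and nr5a2, 4 genes, were bound in WT alone (5.08% of all genes) and ar in both genotypes.

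By T3 treatment, ar, nr1h4 and nr3c1 were bound in WT with T3 and not without it, where 7.13% of all genes were, and pgr was bound without T3 and not with it, where 1.89% were. In all of these genes, 2 of 3 libraries of the other condition had a peak. WT control replicate 1, the library with the lowest background level, was the one without a peak at the ar and nr1h4 sites, and WT control replicate 2 the one without a peak at nr3c1. Without replicate 1 of each condition, ar and nr1h4 were bound in WT control as well, and without replicate 2, nr3c1 was. None of the 32 genes was bound in TRα-/- with T3 and not without it or the reverse, where 2.11% and 4.1% of all genes were.

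The RXR, RAR, vitamin D receptor and PPAR genes analysed here encode heterodimer partners of TR and some of the receptors that share them. They were rxrb, rxrg, rarb, rarg, vdr and ppard, and none was bound in any condition, where 24.2% of all genes were. The oxysterol and bile acid receptors also share RXR. Among their genes, nr1h4 (FXR) was bound in WT T3, and nr1h2 (LXRβ) in no condition. At rxrb a peak lay at the gene start, centred 166 bp into the gene, in 5 libraries. It ranked 6752 and 7595 in WT control replicates 2 and 3, 21437 and 13040 in WT T3 replicates 2 and 3, and 6867 in TRα-/- T3 replicate 1. No TRα-/- control library had it, and the highest fold enrichment was 7.53. At rxrg a place 14720 bp into the gene had a peak in 7 libraries, 2 of 3 in each condition but TRα-/- T3, where 1 did. Its ranks ran from 9928 to 26261, and its fold enrichment reached 6.17. Both missed the call by 1 library in each WT condition.

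Among the retinoic acid receptor genes, rarg had peaks in all 12 libraries but at scattered places, and at most 3 libraries shared one. That place, 53803 bp into the gene, had ranks of 3421 and 10047 in WT T3 and 4162 in TRα-/- control. At rarb, peaks in 11 libraries were shared by at most 2. At vdr, the vitamin D receptor gene, peaks in 10 libraries were likewise shared by at most 2. At ppard, whose product senses fatty acids, 8 libraries had a peak and none of these overlapped between libraries.

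The remaining unbound receptor genes had peaks in few libraries, or in many libraries at different places. Over the 26 unbound genes, peaks at the gene or its flanks were present in 2 to 12 libraries, with a median of 7. At 9 of the 26 no place was shared by any pair of libraries, and at 11 the best place was shared by 2. The genes with a peak in the fewest libraries were nr0b2 and nr2f2 (COUP-TFII), with 2 each, and nr1d2 (REV-ERBβ) and nr4a2 (NURR1), with 3 each. The gene nr1d2 lies 17752 bp beyond the end of thrb, the TRβ gene, which is a gap wider than the 5 kb flank. Peaks were found in 10 libraries at esr1, 11 at rorb, 8 at rora, 9 at nr1h2 (LXRβ), 7 each at nr1h5, nr2e1, nr4a1 and nr4a3, 6 each at nr2c2 and nr2f6, 5 each at esr2, nr2c1 and nr2f5, and 4 each at nr0b1, nr2f1 and nr2c2ap.

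**Figure D3:**
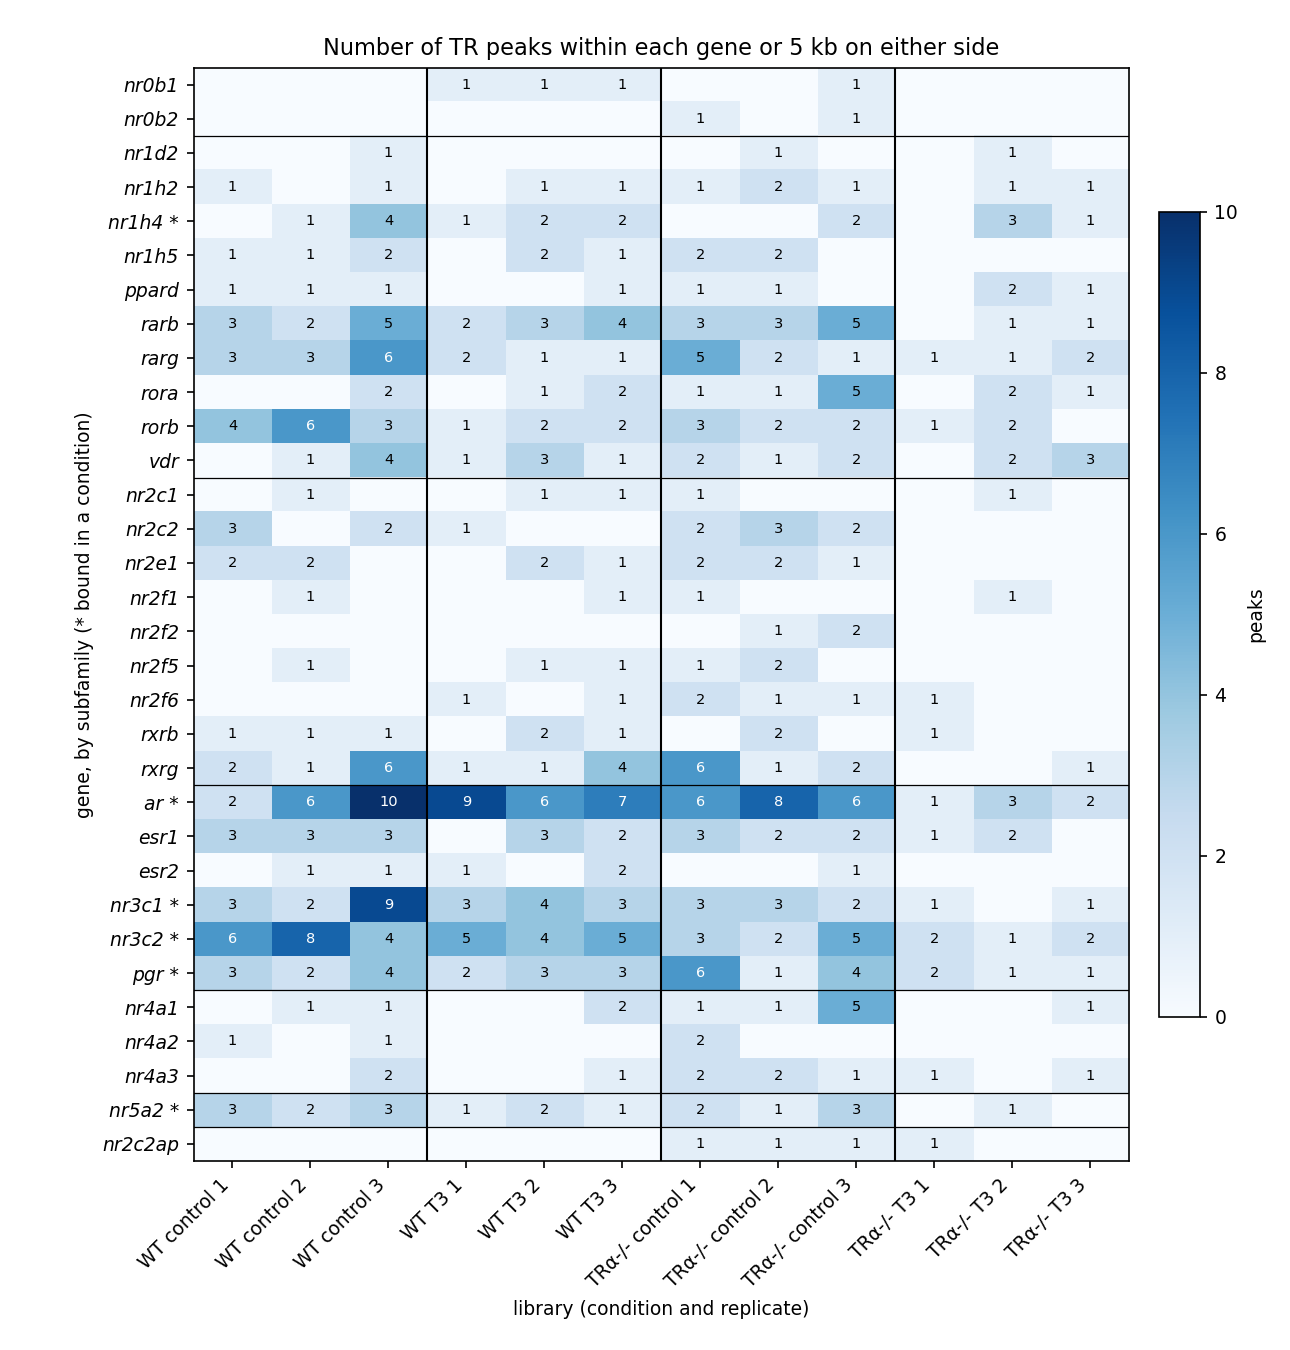
Number of TR peaks within each of the 32 genes or 5 kb on either side (rows, grouped by subfamily) in each of the 12 libraries (columns), with the count printed where it is above 0. The androgen receptor gene reached 10 peaks in WT control replicate 3, and the TRα-/- T3 columns hold the fewest peaks.

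Most peaks at the receptor genes were not shared between libraries. The 12 lists held 520 peaks at these genes, of which 447 (86.0%) lay outside the 8 sites. When the peaks of all libraries were joined where they overlapped, they formed 393 places, of which 346 (88.0%) had a peak in a single library, beside 81.9% of all 264370 places in the lists. A peak in 1 library at a receptor gene is thus the usual case and is not counted as binding here.

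The number of peaks at receptor genes was compared between conditions, library by library. WT control libraries had 42, 47 and 76 such peaks (55 ± 18.4, SD, n = 3), and WT T3 libraries had 32, 45 and 52 (43 ± 10.1). TRα-/- control libraries had 63, 48 and 58 (56.3 ± 7.64), and TRα-/- T3 libraries had 13, 25 and 19 (19 ± 6). Only the TRα-/- T3 libraries stood apart, below each of the other 9. T3 against control in TRα-/- gave a change of -37.3 peaks (p = 0.1 in an exact two-sided permutation test, the smallest that 3 libraries against 3 can give, adjusted p = 0.2 over 4 comparisons). TRα-/- T3 against WT T3 gave a change of -24 (exact p = 0.1, adjusted p = 0.2), without overlap. T3 against control in WT gave -12 (exact p = 0.5, adjusted p = 0.667) and TRα-/- against WT without T3 gave 1.33 (exact p = 0.9), both within the spread of the replicates.

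Since the TRα-/- T3 lists are short, the same peaks were taken per 1000 peaks of the library. WT control libraries had 1.21, 1.05 and 1.2 (1.15 ± 0.0895), WT T3 libraries 0.916, 1.10 and 1.17 (1.06 ± 0.130), TRα-/- control libraries 1.43, 1.23 and 1.37 (1.34 ± 0.0991) and TRα-/- T3 libraries 0.747, 0.961 and 0.615 (0.774 ± 0.175). The TRα-/- T3 libraries stayed below the TRα-/- control libraries on this scale (change -0.567, exact p = 0.1, adjusted p = 0.2) but overlapped the WT T3 libraries (change -0.287, exact p = 0.2, adjusted p = 0.267). TRα-/- control lay above WT control without overlap (change 0.187, exact p = 0.1, adjusted p = 0.2), but with peaks of -log10 q of at least 5 alone the change was -0.00419 (exact p = 0.9). On the same scale, WT T3 and control overlapped (change -0.0933, exact p = 0.5). The T3 effects in the 2 genotypes differed by 0.474 per 1000 peaks, with p = 0.105 in an exact permutation of the treatment labels within genotype. In the number of peaks they differed by 25.3, with p = 0.27 in the same permutation test. The share of peaks that lay at any named gene was 55.8% to 56.0% in TRα-/- T3 and 57.2% to 58.3% in TRα-/- control, so it moved in the same direction by a smaller ratio.

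**Figure D4:**
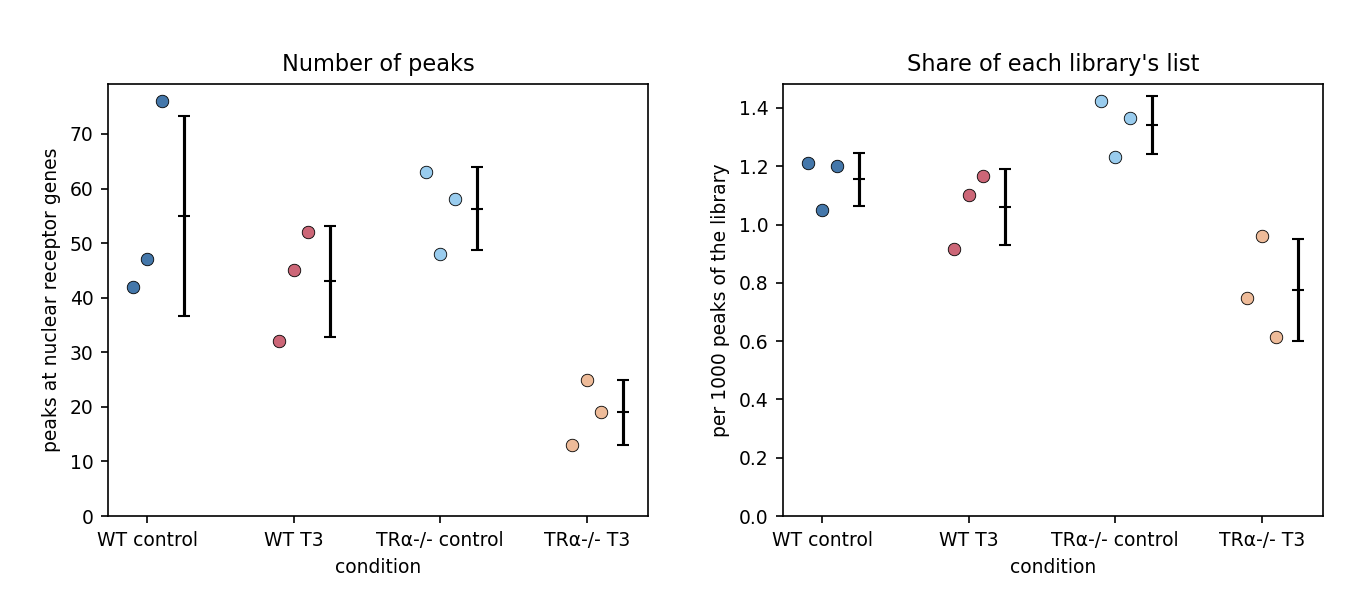
Peaks at the 32 genes in each library (points), as a number (left) and per 1000 peaks of the library (right), with the mean and SD of 3 technical replicates per condition (bars). The TRα-/- T3 libraries had 13 to 25 peaks and were below every other library on the left, and on the right 1 of them, at 0.961, overlapped the WT T3 libraries.

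Receptor genes with other symbols were looked up for comparison, as the genes of the estrogen-related and HNF4 receptors and thrb. These 7 symbols gave 8 gene entries, as esrrb was listed under separate entries with extents of 162 and 2882 bp. The extents of esrrb may be too short, and neither entry was bound. Of these, 4 were bound in any condition, where 24.2% of all genes were: esrrg and thrb, and the HNF4 genes hnf4a and hnf4g, whose products control enterocyte genes. At esrrg, a site downstream of the gene had a peak in 12 of 12 libraries with a median rank of 40. At hnf4a, both sites were in the gene body and were called in WT with and without T3, with peaks in up to 10 libraries and a median rank of 6440 at the stronger one. At hnf4g, 11 libraries had a peak 4874 bp from the gene start, with a median rank of 13412. By the same measure, the 8 sites of the 32 genes had median ranks of 3623.5 to 16271.5, and over all sites the median was 8755. Each median rank is over the libraries with a peak alone, so a library without a peak does not weaken it. The 3623.5 is that of nr3c2 site 1, from 6 libraries, and none of the 8 sites had a peak in all 12.

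Genes that act with or downstream of the receptors were bound as follows. Of 15 genes for retinoid supply and binding, 2 were bound, where 24.2% of all genes were, both in all 4 conditions: cyp26b1, which degrades retinoic acid, and crabp2, which carries it to its receptor. The cyp26b1 site, 1429 bp upstream of the gene start, had a peak in all 12 libraries at a median rank of 1297.5. Among coregulator genes, the coactivator gene ncoa3 and 1 of 2 genes named med1 were bound in all 4 conditions. The med1 site had a median rank of 30.5 over 12 libraries. Among lipid genes known as PPAR or LXR targets, abcg1 and 1 of 2 genes named cpt1a were bound in all 4 conditions and fabp1 in WT T3 and TRα-/- control. The unbound cpt1a entry and fabp1 were listed with extents of only 579 and 153 bp, which may be too short.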

How the data were processed

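The data are 12 peak lists from TR ChIP-Seq, with 1 ChIP DNA sample per condition sequenced as 3 technical replicates. Per the labels and the study's methods, the authors aligned reads with Bowtie2 (2.3.4.1), removed redundant reads, and called peaks with MACS2 (2.1.1.20160309) on each library without a control library. The authors deposited for each peak its position on Xenbase v9.1, the pileup signal in fragments at the summit, the fold enrichment over local background, and p-value and q-value as -log10, with 1 line for each neighbouring annotated feature. Repeated lines of a peak were dropped. Every q-value in the deposited lists was under 0.05. Peaks were ranked within each library by -log10 p. The background level is the lowest value of pileup plus 1 over fold enrichment, less 1.

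Peaks of a condition overlapping by at least 1 bp were joined, and regions with a peak of all 3 replicates were kept. Overlapping regions of different conditions were joined into sites. Gene extents run from the lowest to the highest listed position of a gene on a chromosome. Complete gene features were present for 27 of the 32 genes, and the extents of esr2, nr2c1, nr2c2, nr2f1 and nr2f2 may be too short. All 32 gene IDs and symbols matched the RefSeq gene table, used for names alone. The rule for members, the gene lists and the tests were chosen with earlier results of these data known. Values per library are given for members bound in a single genotype or treatment or in all conditions and for RXR, RAR, VDR and PPAR genes, and other unbound members are named by libraries with a peak, with further ones added after their values were seen.

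Peak numbers were compared by exact two-sided permutation tests, with Benjamini-Hochberg adjustment over 4 comparisons, and with exact sign-flip tests in which the replicate number is a block. The joining and bound-gene steps were tested on simulated data. Python 3.11.15, numpy 2.4.6 and pandas 2.3.3 were used. Alternatives were -log10 q of at least 5, the 17414 strongest peaks of each library, an overlap of 50% of both peaks, 2 of 3 replicates, the gene extent alone, 10 kb on either side, genes with a full gene feature, nr2c2ap left out, each replicate left out, and the replicate block. Motif searches and comparisons of protein sequence were not run because no sequence was at hand. RNA-Seq and ChIP-PCR were not analysed here. Results for some genes of the coregulator and lipid lists, and the counts over those lists, are not reported here.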

Additional observations from a re-analysis of the deposited data

How the results depend on the processing

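The number of bound receptor genes moved with the stringency of the call, together with the share of all genes. With -log10 q of at least 5, 1 gene was bound in WT control (7.63% of all genes) and 2 in WT T3 (12.9%). None was bound in TRα-/- control (6.0%) or TRα-/- T3 (5.91%), and 3 were bound in any condition (13.8%). All 3 were bound in WT alone, where 6.31% of all genes were: ar and nr3c2 in WT T3 and nr5a2 in WT control. With each list reduced to its 17414 strongest peaks, 0 were bound in TRα-/- T3 (10.6% of all genes). With a peak in 2 of 3 replicates, 12, 10, 7 and 5 genes were bound in WT control, WT T3, TRα-/- control and TRα-/- T3 (29.9%, 32.5%, 24.3% and 19.0% of all genes). By the same rule 15 were bound in any condition (40.5%), 4 in all 4 conditions (15.6%), 7 in WT alone (13.4%) and 1, nr2f2, in TRα-/- alone (2.82%). Leaving out each replicate in turn, so that both remaining libraries had to hold a peak, gave 4 to 8 genes in WT control (17.8% to 25.3% of all genes), 6 to 7 in WT T3 (23.5% to 28.1%), 1 to 5 in TRα-/- control (16.6% to 18.9%), 2 to 4 in TRα-/- T3 (12.8% to 15.9%), 8 to 11 in any condition (28.8% to 34.3%), 0 to 1 in all 4 conditions (9.23% to 12.5%), 5 to 6 in WT alone (9.73% to 12.6%) and 0 to 2 in TRα-/- alone (1.81% to 2.47%). In any condition the receptor genes' share was 34.4% against 34.3% without replicate 1 and 31.2% against 30.1% without replicate 2. The highest counts in WT control, TRα-/- control, any condition and TRα-/- alone came without replicate 1, when ar was bound in all 4 conditions, and pgr was without replicate 2. The 50% overlap, the gene extent alone, 10 kb on either side (which added nr2f5 in WT T3), genes with a full feature and leaving out nr2c2ap kept each of these counts within 1.5 times, but with the gene extent alone the share of all genes fell below that of the receptor genes in WT T3 (2573 of 19768 against 5 of 32) and in any condition (14.8% against 18.8%).

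Some differences in peak number changed sign. T3 against control in WT became 2.33 peaks with -log10 q of at least 5, and 0.00821 per 1000 peaks without replicate 1, over a leave-one-out range of -0.165 to 0.00821. TRα-/- against WT without T3 became -3.33 peaks and -0.00419 per 1000 peaks with -log10 q of at least 5, -1.33 with the gene extent alone, and -8.5 without replicate 1, over a leave-one-out range of -8.5 to 11 peaks. The causes were not tested. TRα-/- T3 against control stayed negative in all alternatives run. Correlations of the deviations of same-numbered libraries had no common sign over the comparisons (-0.982 to 0.972 with 3 libraries each), so the libraries were not treated as paired. When libraries were paired by number (the replicate block), the exact sign-flip p was 0.25, the smallest that 3 pairs can give, for T3 against control in TRα-/- (-37.3 peaks), 0.25 for T3 against control in WT (-12), 0.75 for TRα-/- against WT without T3 (1.33) and 0.25 with T3 (-24). Per 1000 peaks the block gave 0.25, 0.75, 0.25 and 0.25 for the same comparisons (-0.567, -0.0933, 0.187 and -0.287), and it changed no call. The depth of the libraries is unknown and limits how weak a site could be detected.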

Other observations

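Of 11 genes of bile acid and vitamin D metabolism, 7 were not bound and 4 were bound in any condition, where 24.2% of all genes were. The 4 were bound in WT T3, where 21.2% of all genes were, and no test was made on the list. The genes cyp27a1 and cyp8b1, for enzymes of bile acid synthesis, and cyp24a1, which degrades vitamin D, were bound in WT T3 alone (7.13% of all genes were bound in WT T3 and not in WT control). At cyp24a1 the site lay 1302 bp upstream of the gene start and had a peak in 3 WT T3, 2 TRα-/- T3 and no control library, with ranks of 13636 to 37514. At cyp8b1 it had a peak in 3 WT T3 and 1 WT control library. At cyp27a1, a narrow site 45 bp from the gene start had a peak in the 3 WT T3 libraries and no other, at ranks of 6170 to 19733, while a site 7813 bp into the gene had peaks in 8 libraries. The gene fgf19, whose product signals from ileum to liver in mammals, had 2 sites. That at 657 bp from its start was called in WT T3 and TRα-/- control, and that at 4969 bp in WT control. In none of these genes was a site found in all 12 libraries.

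Among 10 genes of the circadian clock, to which the REV-ERB and ROR receptors belong as regulators, per1, per3 and dbp, 3 genes, were bound in any condition, where 24.2% of all genes were. The gene per1 carried 5 sites, of which 1, in the gene body 12263 bp from its start, had a peak in all 12 libraries at a median rank of 4477.5. At dbp both sites were in the gene body, and at per3 a site downstream of the gene was called in WT T3. The receptor genes of this circuit among the 32, nr1d2, rora and rorb, were not bound.

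A few unbound receptor genes had peaks in most libraries of 1 condition or at a place shared within 1 treatment. The gene nr0b1 had 1 peak in each of the 3 WT T3 libraries and in 1 other library, but these fell at 2 places with 2 libraries each. The gene nr2c2ap had peaks in 4 libraries, all TRα-/-, and no place was shared. The gene nr2f2 had peaks in 2 TRα-/- control libraries, which shared a place 839 bp upstream of the gene start, and nr2c2 had a place 3621 bp upstream of its start with peaks in 2 WT control and 2 TRα-/- control libraries and no T3 library. These were picked out after the values were seen, and no comparison was made on them.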
